A study of Mus musculus with 2 samples.

Results

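Selenoproteins are proteins that carry selenocysteine, a relative of cysteine with selenium in place of sulphur. The genes described here are a given list of 8 selenoprotein genes, Selenow, Selenop, Selenof, Selenok, Selenom, Gpx1, Gpx4 and Txnrd1, out of 31053 genes listed in the count matrices. The other 16 mouse selenoprotein genes, which complete the 24 with an annotated selenocysteine codon, are set beside them. The 8 genes were chosen with earlier results of these data known, and Selenow was singled out for its difference between the libraries, so every level and ratio below is a description and no test was run.

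The cells came from the hypothalamus of young wild-type mice and were microglia, the brain's own macrophages. All mice had received plasma protein labelled with a dye, and the cells were collected 20 hours later from several pooled mice. Fluorescence sorting split them into dye-carrying (plasma-positive) and dye-free (plasma-negative) microglia, with 1 droplet library for each. The strain, sex, exact age and number of mice, and the way the sort gates were set, were not given in the sources used here. Because each group is 1 library of pooled animals, differences between mice, sorts and library preparations cannot be told apart from the difference between the groups.

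Selenocysteine is inserted at a TGA codon, which elsewhere ends translation, when the messenger RNA carries a stem-loop called the SECIS element in its 3' untranslated region. The insertion uses a dedicated transfer RNA, the binding protein Secisbp2 and the elongation factor Eefsec, and it depends on selenium supply. Many selenoproteins are redox enzymes. The glutathione peroxidases Gpx1 and Gpx4 remove hydrogen peroxide and lipid hydroperoxides, Txnrd1 keeps cytosolic thioredoxin reduced, and Selenop is a secreted protein that carries selenium between tissues. Selenof, Selenok and Selenom belong to the endoplasmic reticulum, and Selenow is a small cytosolic protein of the thioredoxin-like fold. Macrophages, microglia among them, make reactive oxygen and also need such enzymes.

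The coding sequence around the selenocysteine codon shows what the 8 genes share and where they differ, so it is printed here for each. The sequences are from the GENCODE M21 transcripts of the mouse build GRCm38, read 5' to 3' on the coding strand. Each holds up to 30 bases on either side of the TGA, shown in capitals, and stops at the end of the coding sequence. For Selenop it is the first TGA of the reading frame.
Selenow: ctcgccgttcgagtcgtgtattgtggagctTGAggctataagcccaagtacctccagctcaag
Selenom: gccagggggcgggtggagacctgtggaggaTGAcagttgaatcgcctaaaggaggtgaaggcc
Selenof: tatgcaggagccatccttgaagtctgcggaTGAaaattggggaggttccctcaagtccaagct
Selenop: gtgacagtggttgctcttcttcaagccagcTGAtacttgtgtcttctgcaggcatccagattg
Gpx1: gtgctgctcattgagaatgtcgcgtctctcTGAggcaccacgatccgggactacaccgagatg
Gpx4: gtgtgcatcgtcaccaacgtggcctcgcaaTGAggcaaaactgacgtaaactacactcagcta
Selenok: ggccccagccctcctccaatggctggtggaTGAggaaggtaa
Txnrd1: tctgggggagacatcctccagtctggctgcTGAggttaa
In Selenow and Selenom a cysteine codon (TGC or TGT) stands 3 codons before the TGA, which leaves 2 residues between cysteine and selenocysteine. That spacing occurred in 6 of the 24 selenoprotein genes. In Selenof the cysteine codon stands 2 codons before the TGA and in Txnrd1 it stands directly before it. Selenop has a cysteine codon 3 codons after its first TGA. No cysteine codon lay within 3 codons of the TGA in Gpx1, Gpx4 or Selenok.

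The TGA lies early in some of these reading frames and at the very end of others. Counted from the start codon, it is codon 13 of 88 in Selenow, the shortest coding sequence of the 24 genes. It is codon 48 of 145 in Selenom, codon 93 of 162 in Selenof, codon 47 of 201 in Gpx1 and codon 73 of 197 in Gpx4. Selenok has it at codon 92 of 94 and Txnrd1 at codon 498 of 499. Selenop is the exception among the 8 genes in having 10 TGA codons in a frame of 380, the first at codon 59 and the last at codon 377. The other 7 genes have 1 each. The reading frame of Selenow also ends at a TGA.

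**Figure D1:**
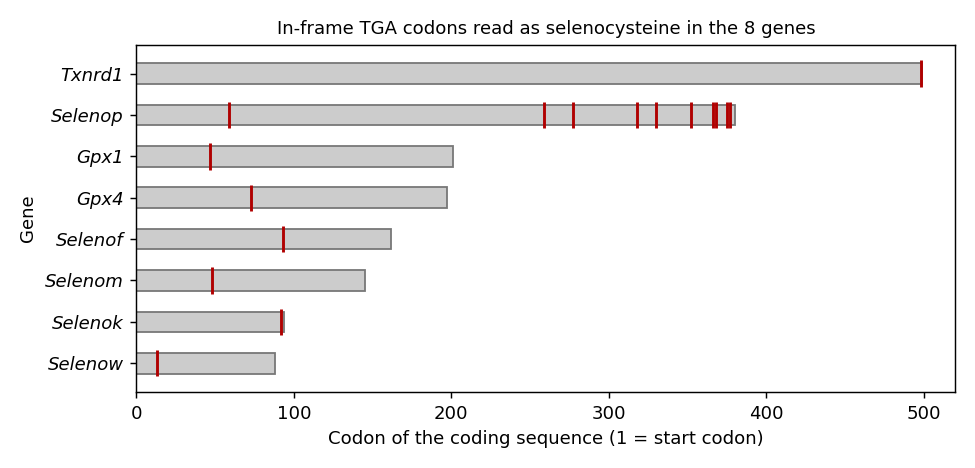
Map of the coding sequences of the 8 genes, with position along the coding sequence in codons on the horizontal axis and a mark at each in-frame TGA read as selenocysteine (GENCODE M21). Selenop has 10 marks and each of the other 7 genes has 1, which lies near the start in Selenow and at the end in Selenok and Txnrd1.

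On GRCm38 with the GENCODE M21 annotation, Selenow lies at chr7:15917208-15922402 on the minus strand, and the other 7 genes lie on the plus strand. Selenop is at chr15:3268547-3280508, Selenof at chr3:144570304-144597680, Selenok at chr14:29968308-29975662 and Selenom at chr11:3514684-3517351. Gpx1 is at chr9:108338903-108340343, Gpx4 at chr10:80047166-80056439 and Txnrd1 at chr10:82833951-82897712. Selenop overlaps Ccdc152, Selenof overlaps the small nucleolar RNA gene Gm24406 and Txnrd1 overlaps Gm38560 and Gm47073 on the other strand, and Txnrd1 also overlaps Eid3 on its own strand. The use of strand in the counting was not given in the sources used here, so reads of such partners could not be separated. Selenok has 6 annotated pseudogenes and Gpx4 has 1, none of them listed in the matrices, and the counts of both genes may hold or lack shared reads.

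The filters kept 34534518 UMIs from 9860 plasma-negative cells and 41984977 UMIs from 10362 plasma-positive cells. A unique molecular identifier (UMI) marks 1 captured RNA molecule. The plasma-positive cells were deeper, with a median of 3753 against 3270.5 UMIs per cell. Each of 11 microglia markers had a UMI in at least 64.4% (plasma-negative) and 68.0% (plasma-positive) of cells. No marker of the other cell types looked for had a UMI in 25% of the cells of either library. Apoe stood at 171 plasma-negative and 1190.0 plasma-positive CPM, mitochondrially encoded genes took 1.20% and 1.42% of UMIs, and cytosolic ribosomal protein genes took 8.99% and 10.0%.

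All 8 genes were detected in both libraries, and their levels spanned more than 100-fold. Levels are given as CPM, the UMIs of a gene per 1000000 UMIs of the library, with a 95% interval for counting error only. Molecules were counted near their 3' end, so CPM was not divided by gene length, and the genes may differ in how well they are captured.

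The secreted selenium carrier Selenop was by far the most abundant. Its level was 1133 CPM (1122 to 1144) plasma-negative and 1260.1 CPM (1249 to 1271) plasma-positive. Selenop alone made up 49.3% and 50.1% of the UMIs of the 8 genes. The endoplasmic reticulum proteins Selenok and Selenof came next. Selenok, a membrane protein that works with the palmitoyl transferase Zdhhc6, stood at 324 CPM (318 to 330) plasma-negative and 303 CPM (298 to 309) plasma-positive. Selenof, which binds a sensor of glycoprotein folding, stood at 294 CPM (289 to 300) and 324 CPM (319 to 330). Selenok was above Selenof in the plasma-negative library and below it in the plasma-positive library, so these neighbours in the order changed places.

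The peroxidases followed. Gpx1 held 243 CPM (238 to 249) in plasma-negative and 289 CPM (284 to 294) in plasma-positive cells. Gpx4, which protects membrane lipids and is the central guard against ferroptosis, held 217 CPM (212 to 222) and 237 CPM (232 to 242). Their intervals did not overlap within either library. Selenow and Txnrd1 were several times lower. Selenow stood at 38.3 CPM (36.3 to 40.4), from 1323 UMIs, in plasma-negative cells and at 52.4 CPM (50.2 to 54.6), from 2198 UMIs, in plasma-positive cells. Txnrd1 stood at 36.9 CPM (34.9 to 38.9) and 38.0 CPM (36.2 to 39.9). In the plasma-negative library the intervals of Selenow and Txnrd1 overlapped, and in the plasma-positive library Selenow lay above Txnrd1. Selenom, a thioredoxin-like protein of the endoplasmic reticulum, was the rarest, with 9.76 CPM (8.74 to 10.9) from 337 UMIs and 9.69 CPM (8.77 to 10.7) from 407 UMIs.

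**Figure D2:**
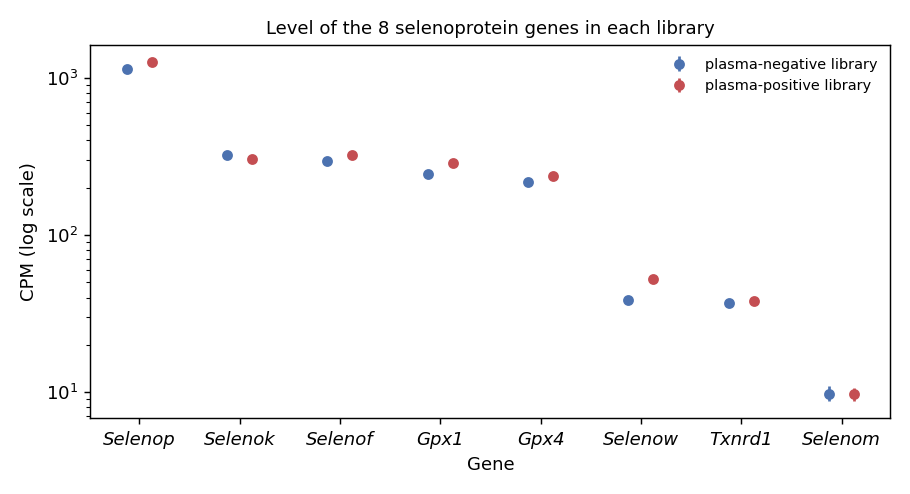
Level of each of the 8 genes in CPM, on a logarithmic axis, in the plasma-negative and plasma-positive libraries, with 95% Poisson intervals for counting error (1 library per group). Selenop is highest in both libraries, near 1133 and 1260.1 CPM, Selenom is lowest, and Selenow and Txnrd1 are close together in the plasma-negative library alone.

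Most plasma-positive ratios of the 8 genes were small, and Selenow had the largest. Ratios are plasma-positive over plasma-negative on a log2 scale, so 0 means equal levels. The log2 ratio of Selenow was 0.45 (0.35 to 0.55), a 1.37-fold higher level. Gpx1 came next at 0.25 (0.21 to 0.29). Selenop was at 0.15 (0.13 to 0.17), Selenof at 0.14 (0.10 to 0.18) and Gpx4 at 0.13 (0.08 to 0.17), and these 3 intervals overlapped. Txnrd1 was at 0.05 (-0.06 to 0.15), an interval that holds 0. Selenok was the only 1 of the 8 with an interval wholly below 0, at -0.09 (-0.13 to -0.06). For Selenom the log2 ratio was -0.01 (-0.22 to 0.20).

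Across the whole matrix 8355 genes reached 10 CPM in either library and were compared. A gene was counted as higher if its plasma-positive CPM was at least 25% above its plasma-negative CPM, and as lower if it was at least 20% below. Of the 8 genes 7 were compared, Selenom falling below the minimum in both libraries. Of these, 1 was higher (Selenow) and 0 were lower, where 0.934% of all compared genes were higher and 0.862% lower. At a minimum of 50 CPM, which Selenow passed in the plasma-positive library alone, 1 of 6 was higher and 0 were lower, against 0.367% and 0.169% of 3540 genes. Since Selenow was chosen on this contrast, nothing is read from the counts. The median log2 ratio was 0.14 over the 7 genes and -0.04 over all compared genes, with quartiles at -0.11 and 0.04. By size of the ratio Selenow was at place 45 and Gpx1 at place 123 of 8355. The 78 cytosolic ribosomal protein genes, of which Rps29 was the most abundant, were all compared and all had a ratio above 1. Their median was 0.16, close to the values of Selenop, Selenof and Gpx4. The part that ribosomal and mitochondrial RNA have in these ratios was not tested.

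**Figure D3:**
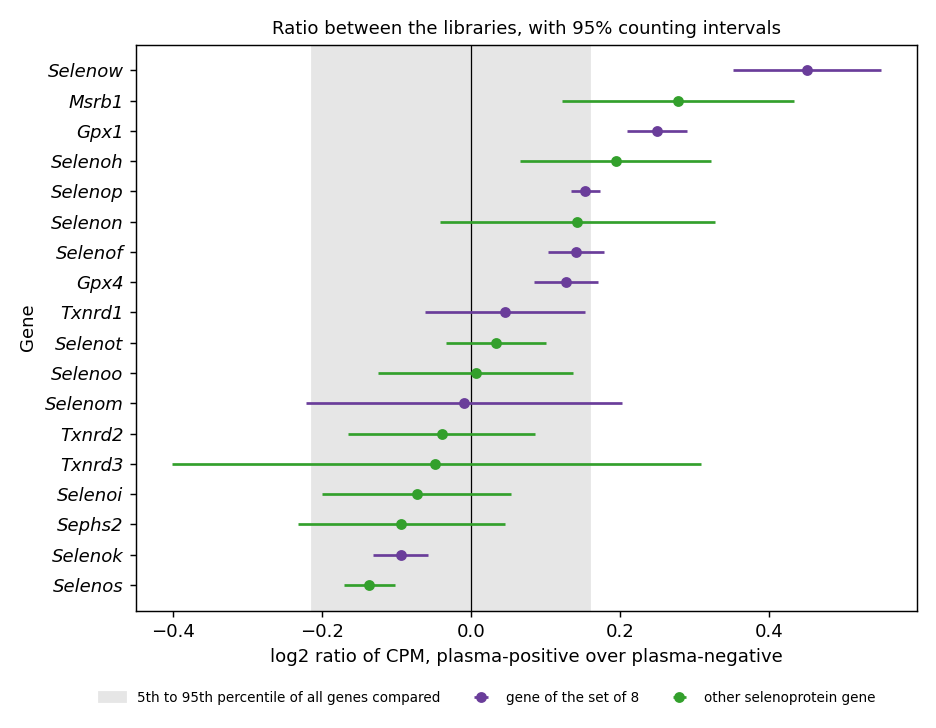
Log2 ratio of plasma-positive over plasma-negative level for the selenoprotein genes with at least 50 plasma-negative UMIs, Selenom and Txnrd3 below the minimum of 10 CPM included, with 95% counting intervals, against the 5th to 95th percentile of all 8355 compared genes (grey). Selenow has the highest point, at 0.45, Gpx1 and Msrb1 lie between 0.2 and 0.3, and Selenok and Selenos have whole intervals below 0.

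Set against the other 7 genes directly, Selenow kept a higher share in the plasma-positive library. This comparison does not use the library total. The other 7 genes together took 2258 CPM plasma-negative and 2462 CPM plasma-positive, a log2 ratio of 0.12 (0.11 to 0.14). For every 100 UMIs of the other 7 genes there were 1.70 Selenow UMIs in the plasma-negative and 2.13 in the plasma-positive library, a log2 ratio of 0.33 (0.23 to 0.43). Taken gene by gene, the relative increase of Selenow was smallest against Gpx1, at 0.20 (0.09 to 0.31). It was largest against Selenok, at 0.54 (0.44 to 0.65). Against Selenop, Selenof and Gpx4 it lay between 0.30 and 0.32, against Txnrd1 it was 0.41 and against Selenom 0.46 (0.23 to 0.69). All 7 intervals, which treat UMIs as independent counts, lay above 0.

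Most cells showed a UMI of Selenop and few showed one of Selenow. Selenop had a UMI in 86.6% of cells of the plasma-negative and 90.5% of the plasma-positive library. Selenow had one in 11.7% (11.1 to 12.4, exact binomial) and 16.4% (15.7 to 17.2). For Gpx1 the shares were 49.9% and 59.6%, for Gpx4 47.6% and 55.0%, for Selenof 57.8% and 66.0%, and for Selenok 61.1% and 64.1%. Txnrd1 was seen in 10.8% and 12.9% of cells and Selenom in 3.19% and 3.62%. These shares carry the difference in depth between the libraries.

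To set the shares at equal depth, each cell was thinned at random to 1000 UMIs, which left out 796 plasma-negative and 603 plasma-positive cells that held fewer. Selenow then had a UMI in 4.09% (3.69 to 4.52) of 9064 plasma-negative cells and 5.21% (4.77 to 5.66) of 9759 plasma-positive cells. Selenop had one in 64.3% and 67.8%, Selenof in 25.3% and 27.4%, Gpx1 in 21.3% and 24.2%, and Gpx4 in 19.6% and 20.6%. Selenok was the reverse, at 28.5% and 25.7%. Txnrd1 stood at 3.40% and 3.56% and Selenom at 0.927% and 0.902%. Thinning turned the order of the libraries for Selenok, whose unthinned share was higher in the deeper plasma-positive library. It also turned that of Selenom, whose intervals overlapped both before and after thinning. The thinned intervals overlapped as well for Gpx4 (18.8 to 20.4 and 19.8 to 21.5) and Txnrd1 (3.03 to 3.79 and 3.20 to 3.94). Free RNA in droplets can add UMIs to any cell, and no cell type that lacks these genes was at hand to measure it.

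Selenow was sparse, and few cells of either library held more than 1 copy. At equal depth exactly 1 Selenow UMI was found in 3.98% of cells in the plasma-negative and 4.91% in the plasma-positive library. Exactly 2 were found in 0.0883% (8 cells) and 0.277% (27 cells), and exactly 3 in 2 cells of each library. Without thinning the highest count in a cell was 4 plasma-negative and 10 plasma-positive. The variance of the thinned count divided by its mean was 1.03 and 1.07, where independent counting gives 1, and for Selenop it was 1.15 and 1.18. A thinned cell held UMIs of a median of 2 of the 8 genes in both libraries, and the share of cells with none was 12.2% plasma-negative and 10.1% plasma-positive.

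Among cells classed by UMIs of Apoe, a lipid carrier that activated microglia make, and of interferon-induced genes, the log2 ratio of Selenow was highest with both. Cells were sorted into classes at equal depth by whether they had a UMI of Apoe and a UMI of a list of 15 interferon-induced genes, and levels were then taken from all UMIs. These classes are ranges of a count and not cell types, and cells with exactly 1 UMI lie at the limit. There were 431 such plasma-negative and 920 plasma-positive cells for Apoe, and 1726 and 2019 for the interferon list. At least 3 UMIs were held by 165 and 624 cells for Apoe, and by 130 and 493 for the interferon list. Cells of the same class were therefore not matched between the libraries in their Apoe or interferon counts. In cells with neither, which made up 70.5% of the plasma-negative and 58.4% of the plasma-positive library, Selenow stood at 37.0 CPM (34.6 to 39.5) and 40.5 CPM (38.0 to 43.1). Its log2 ratio there was 0.13 (-0.00 to 0.26), close to the 0.10 of the other 7 genes in the same cells.

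Cells with both kinds of UMI were rarer, 194 plasma-negative and 753 plasma-positive, and somewhat deeper, with medians of 3630 and 4104 UMIs against 3368 and 3845 in cells with neither. The part of depth or doublets in their Selenow level was not tested. In them Selenow reached 51.0 CPM (36.1 to 70.0) from 38 UMIs in the plasma-negative and 127 CPM (116 to 140) from 457 UMIs in the plasma-positive library, a log2 ratio of 1.32 (0.84 to 1.84). With Apoe alone the levels were 38.0 and 59.6 CPM, at 0.65 (0.28 to 1.03), an interval that overlaps that of cells with both. With the interferon list alone they were 42.1 and 51.3 CPM, at 0.28 (0.07 to 0.49), an interval that overlaps that of cells with neither. With levels also taken from the thinned counts, the log2 ratio was 1.35 (0.41 to 2.46) with both and 0.75 (-0.05 to 1.62) with Apoe alone. It was 0.07 (-0.32 to 0.47) with the interferon list alone and 0.19 (-0.07 to 0.44) with neither. All of these intervals overlapped, and the order of the lowest classes depends on the counts used. Within the plasma-positive library, Selenow was 3.15-fold (2.81 to 3.52) higher in cells with both than in cells with neither, and within the plasma-negative library 1.38-fold (0.97 to 1.91), an interval that holds 1. The plasma-negative class rests on few UMIs, and the difference between those folds was not tested.

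The other genes differed from class to class by smaller folds than the 3.15-fold of Selenow in the plasma-positive library, and the difference between genes was not tested. In the plasma-negative library Selenof was 1.21-fold (1.07 to 1.37), not far from the 1.38-fold of Selenow, and in the plasma-positive library Selenom was 1.42-fold (1.00 to 1.98). In plasma-positive cells with both kinds of UMI over those with neither, Gpx1 was 1.28-fold and Selenop 1.21-fold, and in the plasma-negative library they were 1.01-fold and 0.98-fold. Selenok was 0.90-fold and Txnrd1 0.81-fold in the plasma-positive library. All 7 other genes together were 1.14-fold there and 1.01-fold in the plasma-negative library. In cells with neither UMI Gpx1 stood at 239 and 279 CPM, a log2 ratio of 0.22 (0.17 to 0.27) that is close to its 0.25 over all cells. In cells with both it stood at 242 and 356 CPM, a log2 ratio of 0.56 (0.33 to 0.79).

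**Figure D4:**
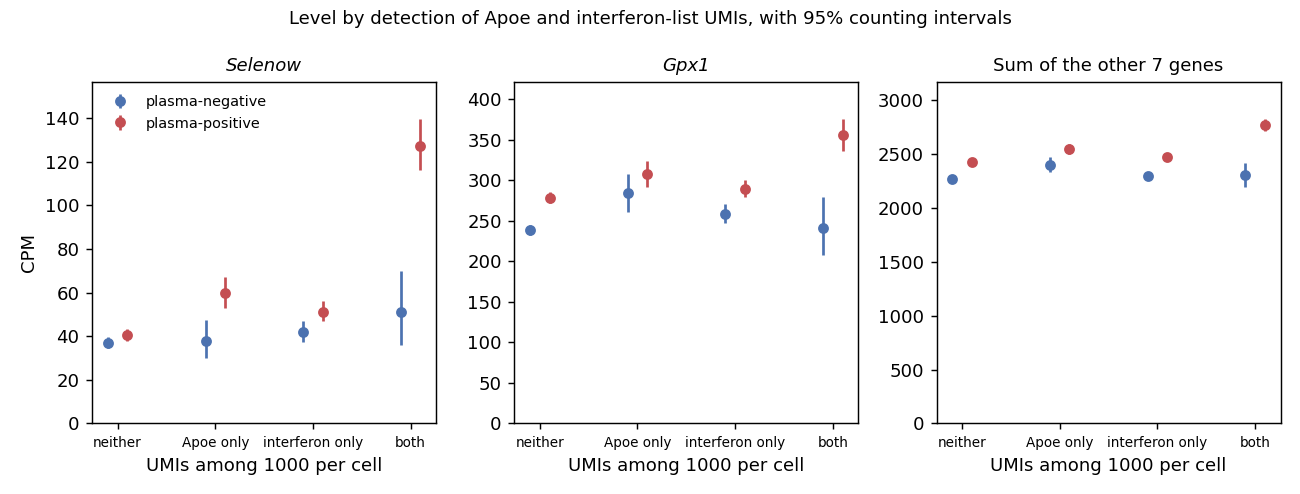
Levels in CPM of Selenow, Gpx1 and the sum of the other 7 genes in cells grouped by UMIs of Apoe and of the interferon list, for each library, with 95% counting intervals. The plasma-positive cells with both kinds of UMI stand at 127 CPM of Selenow against 40.5 CPM in plasma-positive cells with neither, a wider spread than in the other panels.

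Along the number of Apoe UMIs in a thinned cell, Selenow was higher at each step in the plasma-positive library. Cells with 0, 1, 2 and at least 3 Apoe UMIs held 43.5, 52.3, 88.0 and 136 CPM of Selenow, and the intervals of the first 2 overlapped. In the plasma-negative library the same classes held 38.2, 39.3, 42.6 and 46.7 CPM, and the intervals of all 4 overlapped. Along the interferon list the plasma-positive cells held 43.7, 47.0, 71.9 and 165 CPM of Selenow. Plasma-negative cells held 37.1, 41.4, 33.2 and 84.2 CPM, so there too the 130 cells with at least 3 interferon UMIs had the highest level, with an interval of 60.9 to 113. The log2 ratio between the libraries at 3 or more UMIs was 1.54 (1.00 to 2.14) for Apoe and 0.97 (0.52 to 1.46) for the interferon list. These top classes have no upper limit and were not matched between the libraries. At 3 or more Apoe UMIs the other 7 genes together had a ratio of 0.36 (0.28 to 0.44).

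The plasma-positive level of Selenow was the higher one in every bin of depth and of mitochondrial share, though not beyond counting error in each. With the cells of each library ranked by UMI total and divided into 10 bins of equal size, the log2 ratio of Selenow ran from 0.15 to 0.72, was above 0 in 10 of 10 bins and had an interval wholly above 0 in 5. Ranked by the share of mitochondrial UMIs, it ran from 0.11 to 0.82 and was again above 0 in 10 of 10 bins, in 7 of them with the whole interval. Bins were ranked within each library, so bins of the same rank differed in depth and mitochondrial share. The highest ratios by mitochondrial share, 0.82 and 0.78, were those of the 2 bins with the most mitochondrial RNA. By UMI total the highest, 0.72 and 0.70, were those of the 2 deepest bins. In the plasma-positive library Selenow stood at 44.6 CPM in the bin of lowest mitochondrial share and 77.2 CPM in the highest, a log2 ratio between those bins of 0.79. In the plasma-negative library the lowest bin stood at 38.0 CPM and the log2 ratio of the highest to it was 0.24.

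The shallowest cells were poor in nearly all of these genes. In the lowest bin by UMI total the other 7 genes together held 836 CPM plasma-negative and 1135 CPM plasma-positive, against 2296 and 2488 CPM in the highest bin. Selenop held 405 and 561 CPM there against 1196 and 1315 CPM in the highest bin. Selenow in that lowest bin was 28.7 and 34.3 CPM, and in the next bin it reached its maxima of 45.8 and 65.0 CPM. Along the mitochondrial share Selenok had its lowest levels, 237 and 228 CPM, in the top bin of each library, a log2 ratio to the bottom bin of -0.51 and -0.46. Selenop was also lowest there, by less, at -0.09 and -0.19. In the plasma-negative library the cells of that top bin were also shallow, with a median of 1182.5 UMIs against 2683.5 in the bottom bin. The part of depth in these levels was not tested. The ratio of Selenok between the libraries was above 0 in 1 of 10 mitochondrial bins and 3 of 10 depth bins, while those of Selenop, Selenof, Gpx1 and Gpx4 were above 0 in all 10 bins of both kinds.

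**Figure D5:**
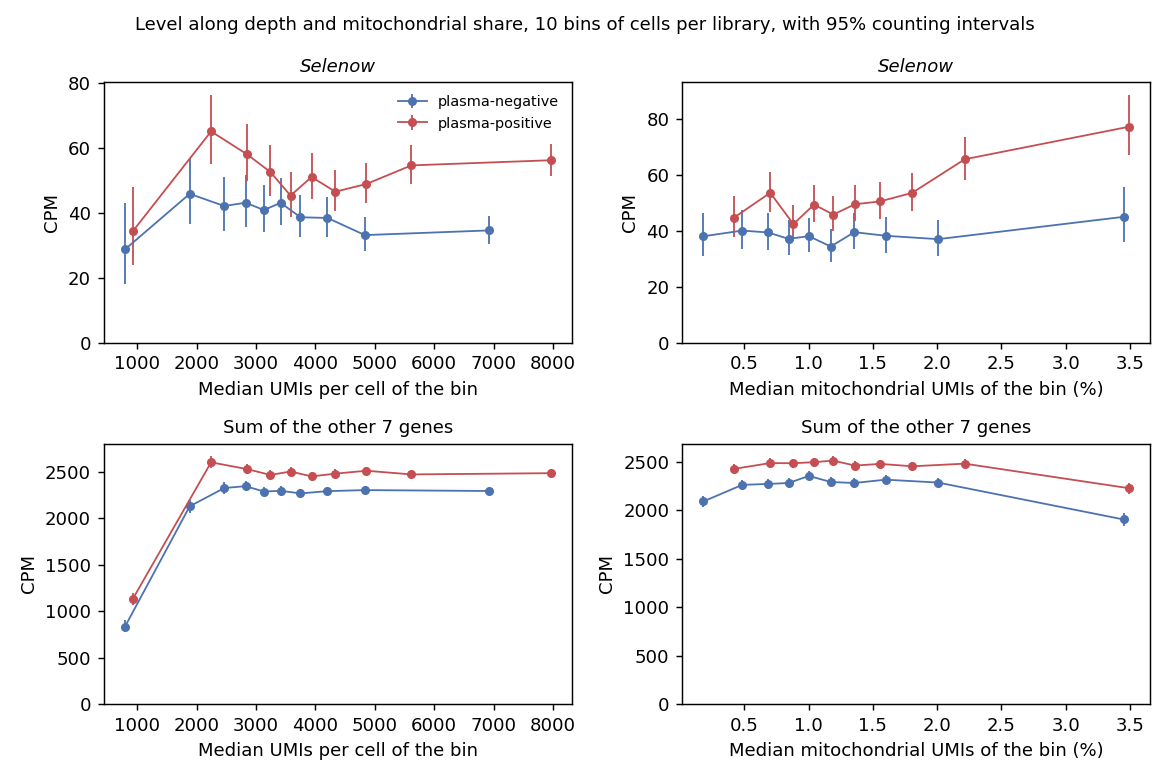
Level in CPM of Selenow and of the sum of the other 7 genes in 10 bins of cells per library, ranked by UMI total and by mitochondrial share, with 95% counting intervals. The plasma-positive points of Selenow lie above the plasma-negative points in all bins and reach 77.2 CPM in the bin of highest mitochondrial share.

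Genes whose level followed that of Selenow most closely were looked for over the 20 bins of mitochondrial share (10 per library), among the 3527 genes that reached 50 CPM in either library and are not mitochondrially encoded. The likeness is Pearson's r of log2 CPM. The bins share their library and its depth, so r is a description only. Because r was taken over both libraries at once, it also holds the difference between them, for which Selenow was chosen. The 10 genes of highest r were Ftl1 (0.930), H2-K1 (0.908), Fth1 (0.905), Tspo (0.901), Lgals3bp (0.888), Rps2 (0.870), H2-D1 (0.866), Ifi27l2a (0.865), Tmem176a (0.864) and Rpsa (0.862). Ftl1 and Fth1 encode the subunits of ferritin, the iron store, and H2-K1 and H2-D1 are class I antigen-presenting molecules. Of the 100 genes most like Selenow, 43 were cytosolic ribosomal protein genes, which made up 78 of the 3527 genes. Oxidative phosphorylation genes were 2 of the 100 and 73 of the 3527. All 78 ribosomal protein genes had a ratio above 1 between the libraries, which enters r, and these counts were not taken within each library. The median r over all genes was -0.28. In the 10 plasma-negative bins alone r of those 10 genes, in the same order, was 0.62, 0.51, 0.35, -0.39, 0.06, 0.30, 0.38, 0.04, 0.69 and 0.31. In the 10 plasma-positive bins it was 0.89, 0.92, 0.90, 0.92, 0.93, 0.95, 0.91, 0.91, 0.67 and 0.92. Ifi27l2a, at 19.5 and 90.9 CPM, reached 50 CPM in the plasma-positive library alone. Among Gpx1, Selenof, Gpx4, Selenop and Selenok, Gpx1 was most like Selenow, with r of 0.77 at place 50. Selenok stood at the other end with -0.69 at place 3333. Txnrd1 and Selenom did not reach 50 CPM. In the 10 plasma-negative bins alone r was -0.76 for Gpx1, -0.62 for Selenof, -0.35 for Gpx4, -0.65 for Selenop and -0.67 for Selenok. In the 10 plasma-positive bins it was 0.71, 0.28, -0.53, -0.69 and -0.90. Gpx1 thus had the lowest r of these in the plasma-negative bins and the highest in the plasma-positive bins.

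Among the other 16 selenoprotein genes 9 were compared, and 0 of them passed the limits of 25% higher or 20% lower. Selenos, an endoplasmic reticulum membrane protein that recruits the segregase Vcp, was the most abundant of these and second to Selenop over all 24 genes. It stood at 375 CPM (369 to 382) plasma-negative and 341 CPM (336 to 347) plasma-positive, a log2 ratio of -0.14 (-0.17 to -0.10). Selenok and Selenos, which both belong to the machinery that degrades misfolded endoplasmic reticulum proteins, were the only compared selenoproteins whose interval lay wholly below 0. Of all compared genes, 29.8% had a lower ratio than Selenok and 16.7% a lower ratio than Selenos, so neither ratio was unusual. The share of all compared genes with such an interval was not counted. The ratio of Sephs2, -0.09 (-0.23 to 0.05), was as low as that of Selenok. The methionine sulfoxide reductase Msrb1 had the second highest ratio after Selenow, 0.28 (0.12 to 0.43), at 16.4 and 19.9 CPM, and its interval overlapped that of Selenow. Selenoh, a nucleolar protein, was at 24.8 and 28.3 CPM, a ratio of 0.19 (0.07 to 0.32). The endoplasmic reticulum oxidoreductase Selenot was at 94.2 and 96.4 CPM, a ratio of 0.03.

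The log2 ratios of the remaining compared genes were 0.14 for Selenon, 0.01 for Selenoo, -0.04 for the mitochondrial thioredoxin reductase Txnrd2, and -0.07 for Selenoi. Sephs2, which makes the selenium donor for selenocysteine, stood at 23.3 and 21.8 CPM. Txnrd3 lay under the minimum at 3.62 and 3.50 CPM. The plasma peroxidase Gpx3 had 1 plasma-negative and 15 plasma-positive UMIs. The deiodinases Dio1, Dio2 and Dio3, which process thyroid hormone, and Gpx2 and Selenov had 0 UMIs in both libraries, which by a limit of 3 counts per library allows up to 0.0869 CPM plasma-negative and 0.0715 CPM plasma-positive. Over all 24 genes, 16 were compared, 11 had a ratio above 1 and the median log2 ratio was 0.09. The 16 genes outside the 8 together had a ratio of -0.06 (-0.09 to -0.04), below the 0.12 of the 7 genes set against Selenow.

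The other genes of the selenium and redox pathways are set beside all 8355 compared genes, of which 0.934% were higher, 0.862% were lower and 35.7% had a ratio above 1, with a median of -0.04. At such shares a count of 0 is no result about a short list. For the machinery that makes and inserts selenocysteine the values were near those of all genes. Of 14 listed genes 10 were compared, 0 were higher and 0 lower by those limits, 3 had a ratio above 1 and the median log2 ratio was -0.06. Pstk, the kinase that acts on the selenocysteine transfer RNA, stood at -0.18 and the elongation factor Eefsec at -0.17. The most abundant, Rpl30, a ribosomal protein that also binds SECIS elements, stood at 0.14. Partners of Selenof, Selenok and Selenos in endoplasmic reticulum folding and degradation gave 13 compared of 14, 0 higher and 0 lower, and a median of -0.02. They ran from -0.12 for Zdhhc6 to 0.17 for Vcp, and the most abundant, the disulfide isomerase Pdia3, was at -0.05.

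In the redox systems that Txnrd1 and the peroxidases serve, ratios were small and mostly above 1. Of 19 thioredoxin and peroxiredoxin genes 17 were compared, 0 passed the limits in either direction and 16 had a ratio above 1, against 35.7% of all compared genes. Their median was 0.07, with the highest value, 0.23, at Prdx5. The most abundant, Txnip, had the lowest value, -0.03. The glutathione list gave 8 compared of 14, 0 in either direction, 6 with a ratio above 1 and a median of 0.06. Its most abundant gene, Slc3a2, had the lowest value, -0.10. The list of Nrf2, the factor that switches on antioxidant genes such as Txnrd1, also gave 8 compared, of 12, 0 in either direction and a median of 0.05, with Nfe2l2, which encodes Nrf2, at 290 and 289 CPM. Of 10 lipid peroxidation and ferroptosis genes 9 were compared, 0 were higher and 1 was lower, the transferrin receptor Tfrc at -0.45 with 14.4 and 10.5 CPM. In that list the ferritin gene Fth1 was the most abundant, at 2841 and 3409 CPM and a ratio of 0.26. Of 92 oxidative phosphorylation genes 84 were compared, 0 were higher and 1 was lower, Ndufaf6 at -0.36, and the median was 0.09. Cox8a was the most abundant of them. Where a symbol belonged to several identifiers (Atp5o), the identifier that reached 10 CPM was used.

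Markers of other cells were low in both libraries. The summed level of the border-associated macrophage list was 3.62 CPM plasma-negative and 6.22 CPM plasma-positive, with Mrc1 in 0.842% and 1.28% of cells, and 4 plasma-negative and 1 plasma-positive of its 8 markers had 0 UMIs, Lyve1 in both libraries. That of the astrocyte and tanycyte list was 1.45 and 2.10 CPM, that of monocytes 3.82 and 3.69 CPM, and that of neurons 4.58 and 6.81 CPM. The oligodendrocyte list reached 59.9 and 61.5 CPM, with Mag in 9.83% and 11.3% of cells, and the endothelial and mural list 22.9 and 20.7 CPM. Neutrophil, T or NK, B cell, ependymal and erythroid lists summed to at most 0.116 CPM plasma-negative and 0.357 CPM plasma-positive. The part of such cells in the levels of the 8 genes was not tested. Depth and the share of mitochondrial RNA also differed between the libraries in the direction of the Selenow difference. With the cells of both libraries pooled into deciles and the deciles weighted equally, the log2 ratio of Selenow was 0.43 by UMI total and 0.44 by mitochondrial share. A lower share of cells with a gene and fewer molecules per cell could not be separated at the depth of these cells for Selenow, Txnrd1 and Selenom.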

How the data were processed

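Raw UMI counts per gene and cell, deposited by the authors for 1 plasma-negative and 1 plasma-positive microglia library, were used. Per the file headers they come from Cell Ranger 6.1.2, while the submitters' processing notes name Cell Ranger 3.0.1. The genome build, annotation, strand setting and cell calling were not given in the sources used here, and cell barcodes were not used here. Kept cells had 500 or more UMIs, 300 or more genes and no more than 10% mitochondrial UMIs. This removed 1 cell by the gene minimum and 17 by the mitochondrial limit of 9878 plasma-negative cells, and 28 by the mitochondrial limit of 10390 plasma-positive cells. No doublet caller was run, and an alternative left out the cells of highest UMI total at 0.8% per 1000 cells. Counts were summed per library and divided by its total (CPM, no pseudocount). Genes reaching 10 CPM in either library were compared, by size alone, at limits of 25% higher and 20% lower. No test was run, since each group has 1 library. Intervals are exact Poisson for levels, exact binomial (Clopper-Pearson) for shares, exact conditional binomial for ratios and Wald on the log scale for Selenow-per-gene ratios, all at 95% and for counting error only. Thinning drew 1000 UMIs per cell with a fixed seed. Python 3.11.15, numpy 2.4.6, scipy 1.17.1, pandas 2.3.3 and matplotlib 3.10.9 were used, and the scripts were tested on simulated data.

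The 8 genes, the gene lists and the classes were chosen with earlier results of these data known. All 8 genes are given with values. Of the other 16 selenoproteins those with at least 10 CPM are named, and of each list the count past the limits, the median, the most abundant member and those past the limits. Further list members are named as the ends of a range, and Gpx3, Txnrd3, Eefsec and Mrc1 were picked with their values in view. The 10 genes most like Selenow were taken by r. The other marker lists were monocytes, neutrophils, T or NK cells, B cells, neurons, endothelial or mural cells, ependymal cells, erythroid cells, border-associated macrophages, astrocytes or tanycytes and the oligodendrocyte lineage.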

Additional observations from a re-analysis of the deposited data

How the results depend on the processing

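Settings were changed singly. The log2 ratio of Selenow ran from 0.39 to 0.49 over 11 alternatives, among them other cell filters, TMM scaling, thinning and equal weights over deciles of depth or mitochondrial share. It was 0.13 in cells without an Apoe or interferon UMI alone and 0.25 with the Apoe and interferon classes weighted as in the plasma-negative library, a pair of alternatives chosen after seeing the data, like the deciles of depth. Under the same pair the other 7 genes together gave 0.10 and 0.10, and Selenow per UMI of the other 7 genes 0.034 and 0.15. The other 7 genes gave 0.16 with TMM scaling, 0.15 with a total without mitochondrial and ribosomal genes, and 0.14 as a mean over cells. The 78 higher and 72 lower genes became 13 and 6 at a minimum of 50 CPM, 5 and 1 at 200 CPM, and 1959 and 1743 with no minimum beyond 1 UMI in each library. TMM scaling, which moved the median ratio by 0.04, gave 99 higher and 41 lower, so that 70.7% and not 52.0% of the genes past the limits were higher, and without the cells of highest UMI total there were 73 higher and 92 lower (44.2% higher). The cause of these shifts was not tested. Over 13 alternatives Selenok stayed below 0 (-0.15 to -0.06), Selenom was above 0 in 6 and Txnrd1 in 12, and the other genes in all 13. No paired analysis was possible because there is only 1 library per group, and for that reason no replicate could be left out. Selenom and the plasma-negative cells with both Apoe and interferon UMIs are limited by few UMIs. Txnrd1, with 1273 plasma-negative and 1597 plasma-positive UMIs, and Selenow, with 1323 and 2198, are limited in the same way but less.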

Other observations

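Cells with several UMIs of cell cycle genes showed a different balance of these genes. At equal depth 15 plasma-negative and 38 plasma-positive cells had at least 3 UMIs of a cell cycle list, with 30 and 22 further cells just under that limit. Their median depth was 4607 and 4666 UMIs, against 3380 and 3851 in the remaining cells. In them Selenop was at 553 CPM (403 to 739) plasma-negative and 572 CPM (473 to 684) plasma-positive, against 1147 and 1272 CPM in the remaining cells, 0.48-fold (0.35 to 0.64) and 0.45-fold (0.37 to 0.54). Gpx1 was higher in them, at 810 CPM (627 to 1031) and 572 CPM (473 to 684) against 245 and 290 CPM, 3.31-fold (2.56 to 4.22) and 1.97-fold (1.63 to 2.36). Selenok was 0.60-fold (0.34 to 0.97) and 0.62-fold (0.44 to 0.85). Gpx4 was at 258 CPM (159.6 to 394) and 378 CPM (299 to 471) against 219 and 238 CPM. The intervals cover counting error only and rest on few cells, and Selenow, with 5 and 6 UMIs in them, was not detectably different at this depth.

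Cells with more Selenow UMIs at equal depth also held more ribosomal protein UMIs. With 0, 1 and 2 Selenow UMIs the mean was 91.0, 97.1 and 115 ribosomal protein UMIs in the plasma-negative library, and 100.1, 113 and 147 in the plasma-positive library. The means at 2 Selenow UMIs rest on 8 and 27 cells.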
